A study of Rattus norvegicus with 36 samples.

Results

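Complement and coagulation genes make up a set of 38 liver-expressed genes, chosen by name: 21 encode parts or regulators of complement and 17 belong to the clotting, contact and fibrinolytic systems. They were read from Affymetrix arrays of rat liver, on which 32 of the 38 had a probe set of their own among 14217 genes in all. C2 and Cfb shared their probe sets, Kng1 shared one with related kininogen genes, and F7, F11 and F13b were not analysed here. Where a gene had several probe sets the brightest on average was taken, and no filter on low values was set, so all 32 entered the test.

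The study dosed male Harlan Sprague Dawley rats, 7 weeks old at the start, by oral gavage in corn oil on 5 consecutive days and took the liver 1 day after the last dose. PBDE47 is a brominated diphenyl ether, a flame retardant congener. The 6 groups received the corn oil vehicle (0 mg/kg) or PBDE47 at 485, 48.5, 4.85, 0.485 or 0.0485 mg/kg, with 6 arrays per group and 36 in all, and all groups shared the strain, sex, diet, vehicle and liver lobe. The question was which transcripts each dose changed against vehicle. Each array carried total RNA of the left lobe of a liver, so a lower value cannot be told apart between fewer cells of a type and less RNA per cell. The labels number the arrays of a group without naming animals, and the p-values measure the spread between these arrays.

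Complement is a cascade of plasma proteases that opsonises targets and ends in a membrane-piercing complex, and coagulation is a cascade of related proteases that ends in fibrin, which plasmin dissolves. The hepatocyte makes and secretes most of these proteins, many of them through promoters that carry sites for HNF1, HNF4 and C/EBP factors, and inflammation raises some of them in the acute phase response. Coagulation factors with Gla domains also need vitamin K for their maturation.

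Every value is a log2 RMA intensity, and every change is a difference of group means on that log2 scale. The 32 genes had mean levels from 7.84 to 14.3 with a median of 12.6, and 28 of them lay above 11, among the brightest probe sets of the array, whose highest value was 15.07. The median of their within-group SDs was 0.083, with a range of 0.026 to 0.36. Array medians ran from 5.31 to 5.38, arrays of a group correlated at 0.990 to 0.997, and no pair of arrays was identical. The array labelled 4.85 mg/kg replicate 6 had the lowest median correlation with its group, 0.9906 against 0.9924 for the next. Differences between 3′ and 5′ control probe sets overlapped between the vehicle and 485 mg/kg groups, at -0.14 to 0.01 and -0.13 to -0.04 for GAPDH. The liver label held on its markers: Alb, the plasma albumin, averaged 15.06 on vehicle arrays and Ttr, transthyretin, 14.65.

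At 485 mg/kg, 24 of the 32 genes fell, 2 rose and 6 did not pass the test (limma, Benjamini-Hochberg adjusted p below 0.05 over 31042 probe sets). The falls took in all 6 measured terminal complement components, all 5 complement regulators, both heparin-binding serpins and all 3 fibrinolysis genes, and ranged from -0.10 for antithrombin (Serpinc1) to -0.89 for C6. Masp2, a lectin pathway protease, and Pros1, protein S, rose. The median change of the 32 genes was -0.26, and 29 had a value below 0. The background share of lower calls was 7.22% over all probe sets, 9.43% over 1 probe set per gene and 22.2% over the 957 probe sets with a mean above 11; the members' share was 75.0%. For higher calls the same shares were 7.81%, 11.5% and 24.7%, against 6.25% of the members. The median change was -0.01 over all probe sets and 0.02 over those above 11.

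In 18 of the 32 genes all 6 arrays at 485 mg/kg lay below all 6 vehicle arrays, and in 2, Masp2 and Pros1, all 6 lay above. Across all genes the shares without overlap were 4.34% below and 6.67% above. The 18 were C1s, C5, C6, C8b, C8g, C9, C4bpa, C4bpb, Cfi, F2, F9, F10, Klkb1, Serpinc1, Serpind1, Plg, Serpinf2 and Cpb2, and all 18 were among the 24 that passed the test.

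**Figure D1:**
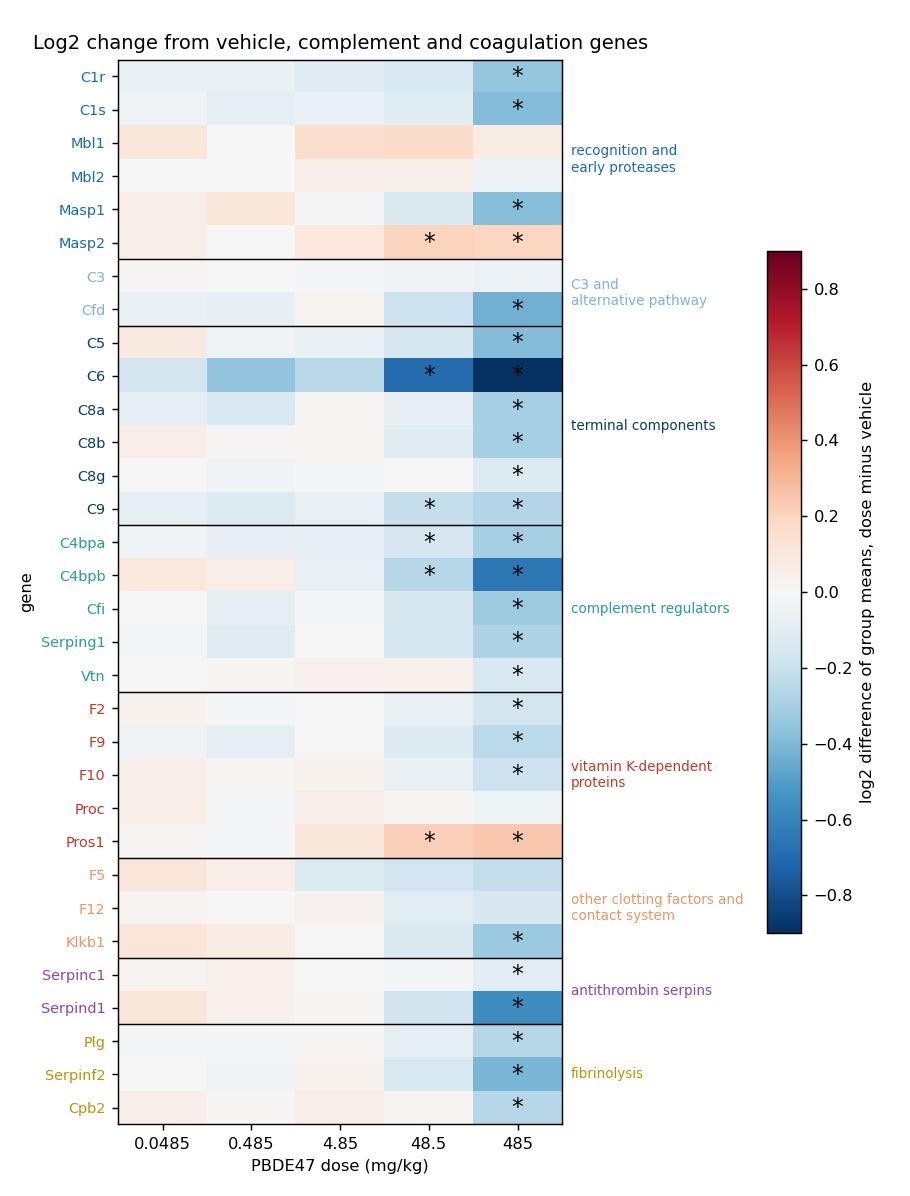
Log2 difference of the group mean from vehicle (colour) for 32 genes in rows, grouped by role, at 5 doses in mg/kg in columns; a star marks an adjusted p below 0.05. Stars are found only in the columns at 48.5 mg/kg, with 6, and at 485 mg/kg, with 26; C6 has the deepest fall and Masp2 and Pros1 are the genes with stars on a rise.

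At 48.5 mg/kg, 4 of the 32 genes fell (C6, C9, C4bpa and C4bpb), 2 rose (Masp2 and Pros1) and 26 did not pass the test, of which 7 had an unadjusted p below 0.05. The background share was 0.821% lower over all probe sets, 1.08% over 1 probe set per gene and 4.70% above a mean of 11, and 2.57%, 4.03% and 7.52% higher. The median change of the members was -0.11, with 25 of 32 below 0, against -0.01 over all probe sets. All 6 arrays lay below vehicle for C6, C4bpa and C4bpb, where the share over all genes was 0.907%, and above vehicle for Masp2 and Pros1, where it was 2.30%. The count of lower calls was 2 instead of 4 when vehicle replicate 1, vehicle replicate 2, or replicate 2, 3 or 5 at 48.5 mg/kg was left out. A fit on only the 12 arrays of both groups called 2 genes lower and 0 higher. Over all probe sets that fit called 136 lower and 420 higher, against 255 and 797 with all 36 arrays. Both comparisons share the vehicle arrays, so their values stand side by side here and are not set against each other.

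At 4.85, 0.485 and 0.0485 mg/kg, limma called 0 of the 32 genes in either direction, with 3, 1 and 0 of them at an unadjusted p below 0.05 and medians of 0.01, -0.01 and 0.01. The background at 4.85 mg/kg was 0% lower, and 0.0193% higher over all probe sets, 0.0352% over 1 per gene and 0.418% above a mean of 11, and at the lower doses 0% in both directions. The alternative tests of the closing section also called none of the 32 at these doses. The 3 genes with an unadjusted p below 0.05 at 4.85 mg/kg were Mbl1 at 0.15, Masp2 at 0.09 and Pros1 at 0.10 (adjusted p = 0.589, 0.755 and 0.769, limma), and the 1 gene at 0.485 mg/kg was C9 at -0.12 (adjusted p = 1).

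Between 48.5 and 485 mg/kg, 9 genes fell and none rose: C1s, C8b, C4bpa, C4bpb, Vtn, Serpind1, Plg, Serpinf2 and Cpb2. Against vehicle, Vtn and Cpb2 gave 0.04 and 0.03 at 48.5 mg/kg, and only C4bpa and C4bpb were called lower there. The background share of falls was 2.31% over all probe sets, 3.19% over 1 per gene and 10.3% above a mean of 11, and that of rises was 2.55%, 4.03% and 12.6%. In all, 31 of the 32 members had a value below 0 with a median of -0.16. On this step C4bpb fell by 0.39 (SE 0.059, adjusted p = 2.43e-05, limma) and Serpind1 by 0.38 (SE 0.068, adjusted p = 0.000371, limma). Cpb2 fell by 0.28 (SE 0.047, adjusted p = 0.000113, limma). For Masp2 the step was -0.00 (95% interval -0.09 to 0.09) and for Pros1 0.03 (-0.07 to 0.13), so neither rise was shown to go further at the highest dose. All 6 arrays at 485 mg/kg lay below all 6 at 48.5 mg/kg for C4bpb, C8g, Cpb2, Serpinc1 and Serpind1, where the share over all genes was 1.55%; none lay above, against 2.34% of all genes. Leaving out 1 array gave between 6 and 11 falls.

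**Figure D2:**
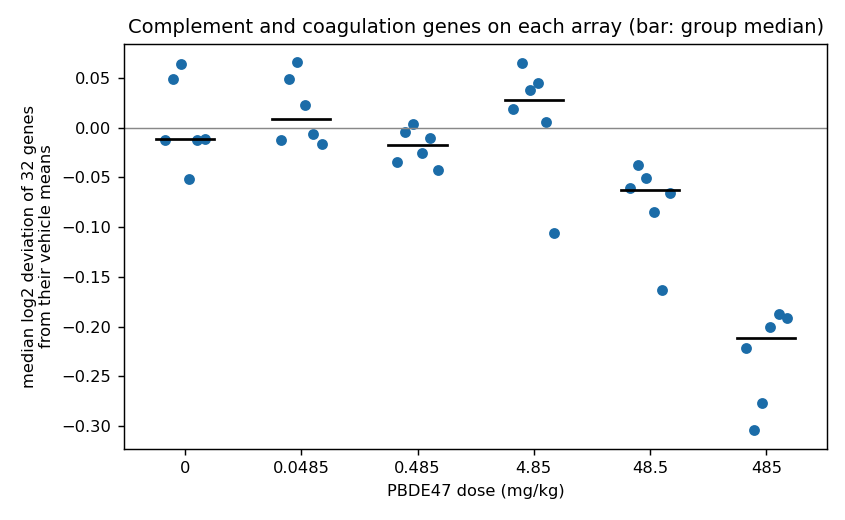
Median over the 32 genes of the difference between an array's log2 value and the gene's vehicle mean, for each of 36 arrays (points) by dose in mg/kg, with group medians as bars. The 6 arrays at 485 mg/kg lie between -0.30 and -0.19, below every other array, and those at 48.5 mg/kg between -0.16 and -0.04.

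The shift was present on single arrays. At 485 mg/kg between 28 and 29 of the 32 genes lay below their vehicle mean on every array, and at 48.5 mg/kg between 21 and 26. Between 4 and 25 did so on the vehicle arrays themselves, and between 10 and 28 at 4.85 mg/kg, where 28 belonged to replicate 6, the array with the lowest correlation. The median deviation of that array was -0.11, and the other 5 of its group lay between 0.01 and 0.06.

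Promoters of 29 of the 38 genes were found in RefSeq's GRCr8 annotation, 25 of them of measured genes, each as 250 bases before and 50 bases after the annotated start. Shown are 3 promoters of genes among those that fell most and that of 1 gene that rose. Capitals mark matches to any of 6 short motifs on either strand, and whether the genes share a regulator was not tested. The promoter of Cfd, which is not shown, held no match, although Cfd fell by 0.43 and Serpinf2 by 0.41. The windows are chr2:55573383-55573682 on the plus strand for C6, chr13:44683732-44684031 on the minus strand for C4bpb, chr10:60778733-60779032 on the minus strand for Serpinf2 and chr11:13677049-13677348 on the plus strand for Pros1, each printed 5′ to 3′ along the gene.
C6: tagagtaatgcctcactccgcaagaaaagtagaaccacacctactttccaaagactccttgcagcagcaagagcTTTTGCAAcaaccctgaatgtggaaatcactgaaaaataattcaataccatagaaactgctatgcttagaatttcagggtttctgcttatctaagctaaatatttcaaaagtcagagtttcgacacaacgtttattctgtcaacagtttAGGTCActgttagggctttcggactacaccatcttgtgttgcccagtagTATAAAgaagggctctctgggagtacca
C4bpb: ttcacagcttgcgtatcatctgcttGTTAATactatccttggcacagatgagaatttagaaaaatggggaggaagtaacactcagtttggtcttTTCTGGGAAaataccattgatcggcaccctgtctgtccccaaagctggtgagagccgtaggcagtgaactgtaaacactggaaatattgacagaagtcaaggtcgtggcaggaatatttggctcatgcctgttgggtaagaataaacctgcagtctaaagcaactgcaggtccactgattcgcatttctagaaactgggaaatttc
Serpinf2: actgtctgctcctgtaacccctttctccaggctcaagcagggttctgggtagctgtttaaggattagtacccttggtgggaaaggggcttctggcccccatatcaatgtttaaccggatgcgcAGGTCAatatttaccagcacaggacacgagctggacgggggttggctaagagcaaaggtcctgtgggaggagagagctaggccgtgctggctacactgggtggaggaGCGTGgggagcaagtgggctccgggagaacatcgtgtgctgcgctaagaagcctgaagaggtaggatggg
Pros1: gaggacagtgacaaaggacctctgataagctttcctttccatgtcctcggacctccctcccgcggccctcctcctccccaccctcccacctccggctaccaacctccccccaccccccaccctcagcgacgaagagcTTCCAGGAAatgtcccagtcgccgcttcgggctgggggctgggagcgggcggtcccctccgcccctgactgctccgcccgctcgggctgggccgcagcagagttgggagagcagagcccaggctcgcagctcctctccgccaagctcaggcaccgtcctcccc

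The motifs were AGGTCA, the hexamer that nuclear receptors such as HNF4 bind; GTTAAT, part of the HNF1 site; TTGCNNAA for C/EBP; TTCNNNGAA for STAT; GCGTG, the core of the dioxin response element; and the TATA box, TATAAA. The C6 window held a C/EBP match at position -176, a nuclear receptor hexamer at -27 and a TATA match at 23, counted from the annotated start. C4bpb held an HNF1 match at -225 and a STAT match at -156, Serpinf2 a nuclear receptor hexamer at -127 and a GCGTG at -20, and Pros1 a STAT match at -113. The hexamer was found in 10 of the 25 promoters of measured genes (40.0%) and in 15.7% of all 27457 promoters of the table. The HNF1 motif was found in 7 (28.0%, against 7.37% of all), the C/EBP motif in 9 (36.0%, against 10.5%) and the STAT motif in 5 (20.0%, against 8.68%). GCGTG was found in 5 (20.0%) against 31.1% of all promoters, and TATAAA in 1 (4.0%) against 14.3%. Among the 18 of these genes that fell at 485 mg/kg, 9 held the hexamer, 8 the C/EBP motif and 6 the HNF1 motif. The STAT motif was in 4 of the 18, GCGTG in 4 and TATAAA in 1, and a link between motifs and falls was not tested. These are matches of letters, and binding was not measured.

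Of the recognition molecules and early proteases, C1r, C1s and Masp1 fell at 485 mg/kg and Masp2 rose, while Mbl1 and Mbl2 did not pass the test. C1r and C1s, the proteases of the C1 complex, are neighbouring genes on chromosome 4, and changed by -0.35 (SE 0.079) and -0.39 (SE 0.079). C1s ran from 12.65 to 12.91 on the vehicle arrays and from 12.30 to 12.63 at 485 mg/kg, without overlap. Masp1, a protease that binds mannose-binding lectin, changed by -0.38 (SE 0.096), and a dimmer probe set of it was lower at both 48.5 and 485 mg/kg (-0.23 and -0.24) whereas another did not pass the test (-0.11 and -0.13). The lectins themselves, which recognise sugars on microbes, gave 0.07 for Mbl1 (95% interval -0.05 to 0.18) and -0.05 for Mbl2 (-0.15 to 0.06) at 485 mg/kg. A dimmer probe set of Mbl2, 1387528_at, had the other sign, 0.03 (adjusted p = 0.856, limma).

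Masp2, probe set 1371025_at, cleaves C4 and C2 in the lectin pathway. Its lowest, median and highest values were 10.99, 11.07 and 11.14 on vehicle arrays, 11.05, 11.16 and 11.27 at 4.85 mg/kg, 11.22, 11.26 and 11.37 at 48.5 mg/kg and 11.21, 11.28 and 11.34 at 485 mg/kg. The arrays of both highest doses lay above every vehicle array, and those at 4.85 mg/kg overlapped with vehicle. The change was 0.20 at 48.5 mg/kg (SE 0.044, adjusted p = 0.007) and 0.19 at 485 mg/kg (SE 0.044, adjusted p = 0.00156). Another probe set of Masp2, 1371098_a_at, was nearly as bright, with a vehicle mean of 10.96 against 11.07. It gave 0.06 and 0.12 (adjusted p = 0.589 and 0.0785, limma). The faintest gave 0.15 and 0.05, so the rise of Masp2 passed the test on 1 of its 3 probe sets. The call at 48.5 mg/kg was lost in the 12-array fit (adjusted p = 0.0788, limma), and averaging the probe sets ended the calls at 48.5 and 485 mg/kg (0.331 and 0.268). The Masp2 gene also encodes a short splice product without the protease domain, and which product each probe set reads was not examined.

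C3, the protein that all complement pathways cleave, had the highest mean level of the measured genes. It ran from 14.30 to 14.39 on vehicle arrays and from 14.21 to 14.40 at 485 mg/kg, where its change was -0.05 (95% interval -0.13 to 0.02) and did not pass the test. Cfd, probe set 1388602_at, is factor D, the protease that starts the alternative pathway, and is best known as a product of fat tissue. Its lowest, median and highest values were 7.77, 7.98 and 8.05 on vehicle arrays, 7.47, 7.79 and 8.07 at 48.5 mg/kg and 7.31, 7.503 and 7.86 at 485 mg/kg. The groups overlapped, and the change at 485 mg/kg was -0.43 (SE 0.11, adjusted p = 0.00505). The joint probe sets of Cfb and C2, neighbours on chromosome 20, gave -0.24, -0.16, -0.12 and -0.16 at 485 mg/kg with adjusted p-values of 0.189, 0.11, 0.0532 and 0.188, so none passed the test.

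All 6 measured terminal components, which assemble the membrane attack complex, fell at 485 mg/kg. C6, probe set 1384580_at, which joins the complex after C5b, had the largest fall of the set. Its lowest, median and highest values were 8.97, 9.41 and 9.92 on vehicle arrays, 8.78, 9.15 and 9.84 at 4.85 mg/kg, 8.41, 8.75 and 8.97 at 48.5 mg/kg and 7.62, 8.69 and 8.96 at 485 mg/kg. The vehicle arrays were spread over nearly a log2 unit, and the highest array at 48.5 mg/kg, 8.970, was only just below the lowest vehicle array, 8.971. The change was -0.69 at 48.5 mg/kg (SE 0.19, adjusted p = 0.039) and -0.89 at 485 mg/kg (SE 0.19, adjusted p = 0.000981), so the linear level fell by 46.1%. The call at 48.5 mg/kg was lost without vehicle replicate 1, 2 or 3 (adjusted p = 0.11, 0.0923 and 0.111) and without replicate 3, 4, 5 or 6 at 48.5 mg/kg (0.0639, 0.0533, 0.0863 and 0.107), all by limma, while the change stayed between -0.59 and -0.69 in these fits. It was also lost in the ordinary test without moderation (adjusted p = 0.0608) and with trended, robust moderation (0.0567).

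C9, probe set 1368741_at, forms the pore of the complex. Its lowest, median and highest values were 13.20, 13.27 and 13.35 on vehicle arrays, 13.07, 13.22 and 13.30 at 4.85 mg/kg, 12.91, 13.03 and 13.22 at 48.5 mg/kg and 12.92, 13.02 and 13.10 at 485 mg/kg. Only the arrays at 485 mg/kg were all below the vehicle arrays. The change was -0.22 at 48.5 mg/kg (SE 0.054, adjusted p = 0.0171; 0.0577 without replicate 2 at that dose and 0.0954 in the 12-array fit) and -0.26 at 485 mg/kg (SE 0.054, adjusted p = 0.000523). C5, whose cleavage starts the assembly, fell by 0.39 (SE 0.077) at 485 mg/kg. C8a and C8b, neighbours on chromosome 5 that encode the alpha and beta chains of C8, both fell by 0.30 (SE 0.074 and 0.049), while C8g, the gene of the gamma chain, fell by 0.12 (SE 0.039, adjusted p = 0.0285). The C8g call was lost without vehicle replicate 2 or 3 (adjusted p = 0.0665 and 0.0646, limma) and without replicate 2 or 4 at 485 mg/kg (0.0523 and 0.0717), and with median centring of the arrays (0.0646) or the 12-array fit (0.126).

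**Figure D3:**
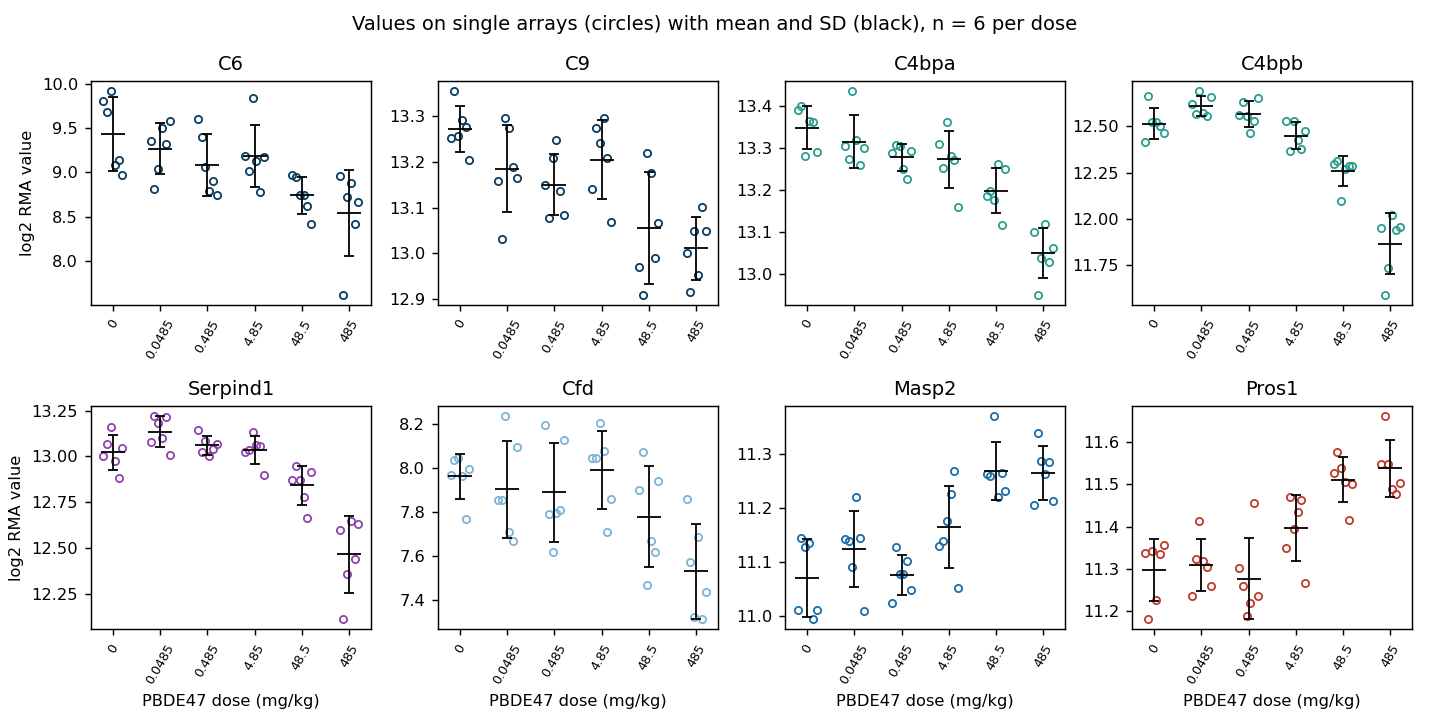
Log2 RMA values of 8 genes on 36 arrays (circles, 6 per dose in mg/kg) with group means and SDs in black; each panel has its own scale. C4bpb and Serpind1 have all 6 arrays at 485 mg/kg below those at 48.5 mg/kg, while Masp2 and Pros1 stand at like levels at both doses.

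All 5 complement regulators fell at 485 mg/kg, and the chains of C4b-binding protein, a cofactor for the breakdown of C4b, were lower at 48.5 mg/kg as well. C4bpb, probe set 1368695_at, encodes the beta chain, which binds protein S. Its lowest, median and highest values were 12.42, 12.51 and 12.66 on vehicle arrays, 12.36, 12.45 and 12.53 at 4.85 mg/kg, 12.10, 12.29 and 12.31 at 48.5 mg/kg and 11.59, 11.95 and 12.02 at 485 mg/kg. The 3 groups of vehicle, 48.5 and 485 mg/kg did not overlap. The change was -0.26 at 48.5 mg/kg (SE 0.059, adjusted p = 0.00845) and -0.65 at 485 mg/kg (SE 0.059, adjusted p = 1.36e-10), which was the smallest p of the 32 genes. Pros1, the partner of the beta chain, rose at both doses, as given among the vitamin K-dependent proteins.

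C4bpa, probe set 1369764_at, encodes the alpha chain and lies near C4bpb on chromosome 13 with 1 gene between them. Its lowest, median and highest values were 13.28, 13.36 and 13.40 on vehicle arrays, 13.16, 13.28 and 13.36 at 4.85 mg/kg, 13.12, 13.19 and 13.26 at 48.5 mg/kg and 12.95, 13.05 and 13.12 at 485 mg/kg. All arrays of both highest doses lay below vehicle. The change was -0.15 at 48.5 mg/kg (SE 0.042, adjusted p = 0.0366) and -0.30 at 485 mg/kg (SE 0.042, 95% interval -0.38 to -0.21), against an interval of -0.77 to -0.53 for C4bpb. The call at 48.5 mg/kg was lost without vehicle replicate 1, 2, 4 or 5 (adjusted p = 0.0869, 0.086, 0.0608 and 0.0701, limma) and without replicate 1, 2, 3 or 5 at that dose (0.0577, 0.0613, 0.0704 and 0.106). Median centring (0.0826) and the 12-array fit (0.164) also ended it.

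Of the other regulators at 485 mg/kg, Cfi, the protease factor I that cleaves C3b and C4b, fell by 0.32 (SE 0.061). Serping1, the C1 inhibitor, which also restrains kallikrein and factor XII, fell by 0.28 (SE 0.061). Vtn, vitronectin, which blocks the terminal complex, fell by 0.14 (SE 0.045, adjusted p = 0.0316), and this call was lost on leaving out vehicle replicate 1, 2, 3, 5 or 6 (adjusted p = 0.0551, 0.054, 0.054, 0.0525 and 0.058, limma) or replicate 1 or 2 at 485 mg/kg (0.0774 and 0.0756). Median centring (0.0565) and the 12-array fit (0.0874) ended it too. Vtn gave 0.04 at 48.5 mg/kg, and its step from there to 485 mg/kg was -0.17 (SE 0.045, adjusted p = 0.0143).

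Among the vitamin K-dependent proteins, F2, F9 and F10 fell at 485 mg/kg, Proc did not pass the test and Pros1 rose. F2, prothrombin, changed by -0.16 (SE 0.037), F9, factor IX, by -0.24 (SE 0.053) and F10, factor X, by -0.19 (SE 0.043), each with all 6 arrays below vehicle. Proc, protein C, which inactivates factors V and VIII, gave -0.04 (95% interval -0.13 to 0.05). None of the 4 passed the test at 48.5 mg/kg, where they lay between -0.11 and 0.01.

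Pros1, probe set 1371037_at, is the cofactor of protein C. Its lowest, median and highest values were 11.18, 11.34 and 11.36 on vehicle arrays, 11.27, 11.42 and 11.47 at 4.85 mg/kg, 11.42, 11.52 and 11.58 at 48.5 mg/kg and 11.48, 11.53 and 11.66 at 485 mg/kg. All arrays of both highest doses lay above all vehicle arrays, and those at 4.85 mg/kg overlapped with them. The change was 0.21 at 48.5 mg/kg (SE 0.049, adjusted p = 0.00838; 0.0597 in the 12-array fit) and 0.24 at 485 mg/kg (SE 0.049, adjusted p = 0.00041), a rise of 18.1% of the linear level.

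Klkb1, plasma prekallikrein, was the 1 of 3 other clotting and contact genes that fell at 485 mg/kg, by 0.34 (SE 0.076, adjusted p = 0.00144). F12, which activates it, gave -0.14 (95% interval -0.25 to -0.03, adjusted p = 0.0768, limma) and F5, the cofactor of factor X, -0.21 (-0.44 to 0.02). The interval of F5 also holds the changes of F2, F9 and F10, so a fall of that size is not excluded for F5. The joint probe set of the kininogens, substrates of kallikrein, was lower at 48.5 mg/kg (-0.20, SE 0.056, adjusted p = 0.0394) and at 485 mg/kg (-0.32, SE 0.056, adjusted p = 4.61e-05), and it cannot tell Kng1 from Kng2 and Kng2l1.

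Serpind1, probe set 1398260_a_at, is heparin cofactor II, an inhibitor of thrombin. Its lowest, median and highest values were 12.88, 13.02 and 13.16 on vehicle arrays, 12.90, 13.05 and 13.13 at 4.85 mg/kg, 12.66, 12.87 and 12.95 at 48.5 mg/kg and 12.11, 12.52 and 12.65 at 485 mg/kg. The arrays at 48.5 mg/kg overlapped with vehicle and those at 485 mg/kg lay below both. The change was -0.18 at 48.5 mg/kg, which did not pass the test (adjusted p = 0.15, limma), and -0.56 at 485 mg/kg (SE 0.068, adjusted p = 9.3e-08). Serpinc1, antithrombin, the main inhibitor of thrombin and factor Xa, fell by 0.10 (SE 0.033, adjusted p = 0.0353). That call was lost without vehicle replicate 1, 2, 3, 5 or 6 (adjusted p = 0.0585, 0.0717, 0.053, 0.0503 and 0.0607, limma) or replicate 5 or 6 at 485 mg/kg (0.0618 and 0.0815), and with the replicate number as a block (0.0535), median centring (0.102) or the 12-array fit (0.202).

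The 3 fibrinolysis genes fell at 485 mg/kg against vehicle and also on the step from 48.5 to 485 mg/kg. Plg, plasminogen, the zymogen of plasmin, changed by -0.26 (SE 0.043), Serpinf2, alpha-2-antiplasmin, which inhibits plasmin, by -0.41 (SE 0.052, adjusted p = 2.02e-07) and Cpb2, the carboxypeptidase that slows clot lysis, by -0.26 (SE 0.047). Cpb2 ran from 12.70 to 12.87 on vehicle arrays, from 12.78 to 12.85 at 48.5 mg/kg and from 12.50 to 12.56 at 485 mg/kg. Its values at 48.5 mg/kg overlapped with vehicle, and those at 485 mg/kg lay below both by more than their own range.

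**Figure D4:**
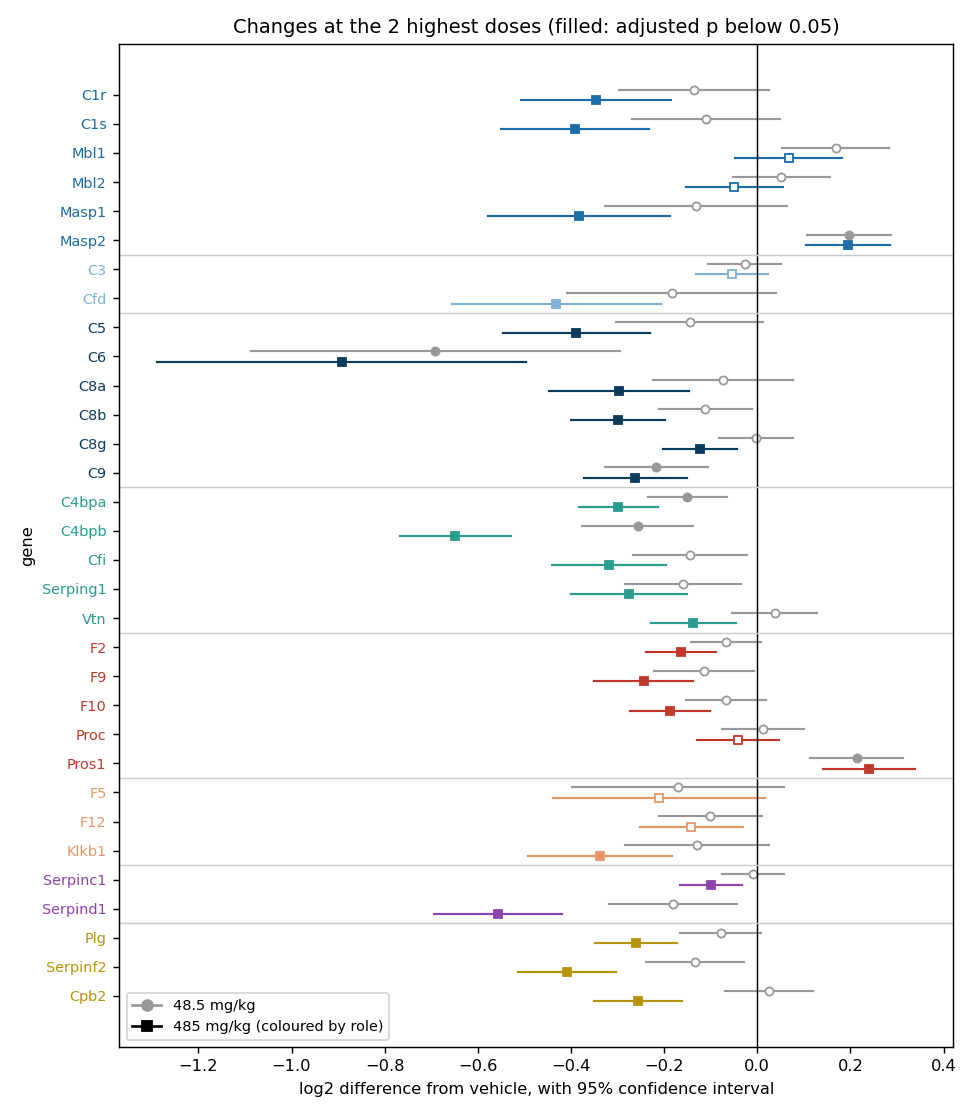
Log2 differences from vehicle with 95% confidence intervals for 32 genes at 48.5 mg/kg (grey circles) and 485 mg/kg (squares coloured by role); filled symbols have an adjusted p below 0.05. C6 has the widest interval, -1.29 to -0.50 at 485 mg/kg, and C3, Proc, Mbl1, Mbl2, F5 and F12 have open symbols at both doses.

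By their calls at 48.5 mg/kg, at 485 mg/kg and on the step between them, the 32 genes fell into 6 patterns. C4bpa and C4bpb were lower at both doses and fell on the step, C6 and C9 were lower at both doses without a call on the step, and Masp2 and Pros1 were higher at both doses without one. A further 7 genes were called at 485 mg/kg and on the step but not at 48.5 mg/kg (C1s, C8b, Vtn, Serpind1, Plg, Serpinf2 and Cpb2), 13 were called at 485 mg/kg alone and 6 nowhere. A missing call at 48.5 mg/kg does not show that a gene was unchanged there.

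**Figure D5:**
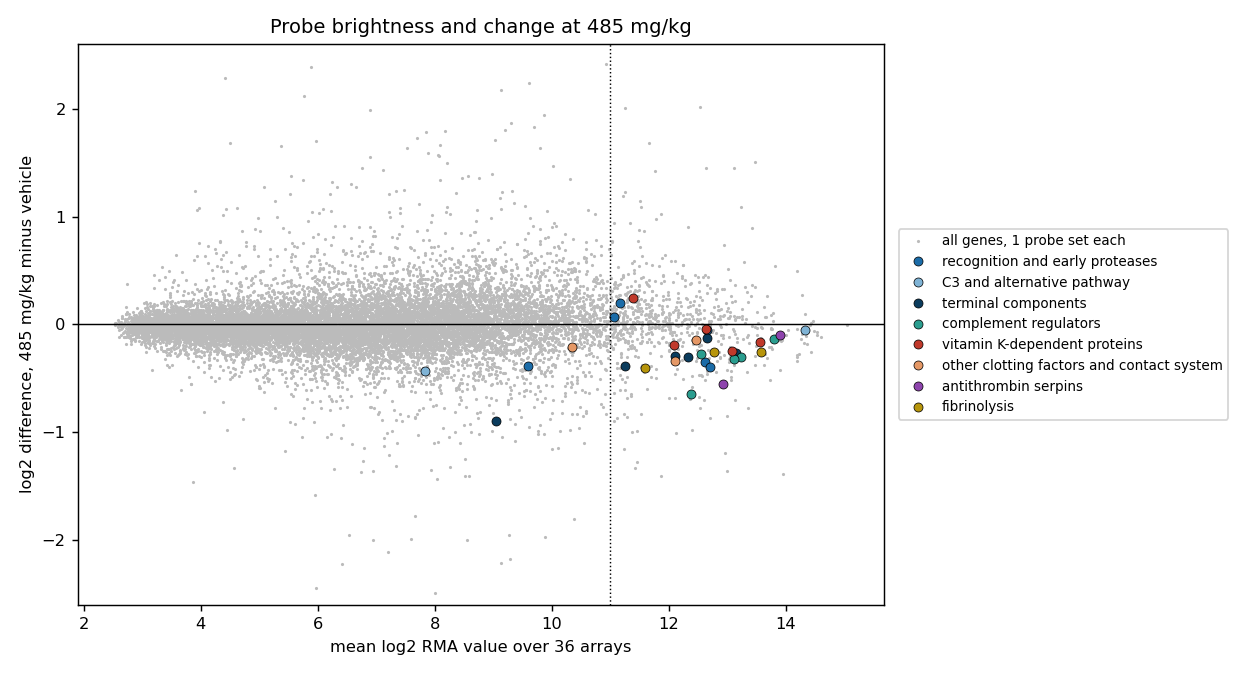
Log2 change at 485 mg/kg (vertical) against the mean log2 RMA value over 36 arrays (horizontal) for all genes with 1 probe set each (grey; 12 genes outside plus or minus 2.6 are not drawn) and for the 32 genes coloured by role. Of the 32 genes, 28 lie to the right of the dotted line at 11, and 29 lie below 0.

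Other genes of both systems were read from lists of related genes. For these lists and those below, the shares at 485 mg/kg were 9.43% lower and 11.5% higher over 1 probe set per gene. Above a mean of 11 they were 22.2% and 24.7%. Of 18 other complement genes measured, 7 were lower and 2 higher at 485 mg/kg, with a median of -0.24. The share of higher calls was near that over all genes. Lower were C1qb (-0.40), a chain of C1q, Cfp (-0.39), properdin, Colec11 (-0.25), a lectin, the C5a receptor C5ar1 (-0.45), Cd93 (-0.33), and the integrin chains Itgax (-0.34) and Itgb2 (-0.57) of complement receptors. Higher were C1qbp (0.51), a mitochondrial protein that binds C1q, which was also higher at 48.5 mg/kg (0.71), and Clu, clusterin (0.33), which binds the terminal complex. The joint probe set of C4a and C4b gave -0.17 (adjusted p = 0.518, limma).

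Of 26 other coagulation and fibrinolysis genes, 7 were lower and 1 higher at 485 mg/kg, with a median of -0.13. Over 1 probe set per gene the shares were 9.43% lower and 11.5% higher. The genes of the 3 fibrinogen chains were all lower, Fga by -0.34, Fgb by -0.31 and Fgg by -0.18, and Fgb also at 48.5 mg/kg (-0.14). A2m, alpha-2-macroglobulin, a broad protease inhibitor, was lower by -2.21 (SE 0.31), Thbd, thrombomodulin, by -0.70, Plau, urokinase, by -0.48 and Serpina1, alpha-1-antitrypsin, by -0.25. Serpina10, the inhibitor of factor Xa that needs protein Z, was higher by 0.14. Of 7 genes of the vitamin K cycle and factor secretion, 1 was lower and 1 higher, with a median of 0.13. Mcfd2, a cargo receptor subunit for factors V and VIII, was lower (-0.16). Vkorc1l1, a vitamin K epoxide reductase, was higher (0.45). At 1 call each way of 7, the list is not read as changed beyond the shares over all genes.

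Of 19 regulators of these genes, 6 were lower and none higher at 485 mg/kg, with a median of -0.13. Over 1 probe set per gene the shares were 9.43% lower and 11.5% higher. They were the hepatocyte factors Onecut1 (-2.18, SE 0.64), Foxa3 (-1.35) and Cebpa (-0.46), the glucocorticoid receptor Nr3c1 (-0.62, and -0.46 at 48.5 mg/kg), Nfkb1 (-0.26) and Il6st (-0.27), the shared receptor chain of the interleukin-6 family. Among the others, Hnf4a gave -0.25 and did not pass the test (adjusted p = 0.187, limma).

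Of 26 acute phase plasma protein genes measured, none is among the 32. At 485 mg/kg 15 were lower and 2 higher, with a median of -0.14, and at 48.5 mg/kg 4 were lower and 1 higher. Shares over 1 probe set per gene were 9.43% lower and 11.5% higher at 485 mg/kg, and 1.08% and 4.03% at 48.5 mg/kg. Above a mean of 11 they were 22.2% and 24.7% at 485 mg/kg, and 4.70% and 7.52% at 48.5 mg/kg. The members gave 24 lower and 2 higher of 32 with a median of -0.26, and the difference between the lists was not tested. Lower at both doses were Serpina3n (-0.33 and -0.87), Itih2 (-0.20 and -0.35), Fetub (-0.17 and -0.21) and Fgb. At 485 mg/kg alone A2m, Itih1, Itih3, Itih4, Hpx, Cp, Fga, Fgg, Serpina1, Ahsg and Ttr were lower, from -2.21 to -0.11, and 5 genes of this list also stand on the coagulation list. Crp, C-reactive protein, was higher at both doses (0.25 and 0.33) and Orm1, alpha-1-acid glycoprotein, at 485 mg/kg (0.74).

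Some markers of liver cell types also changed at 485 mg/kg, and those of B cells, neutrophils and adipocytes did not pass the test. Over 1 probe set per gene the shares were 9.43% lower and 11.5% higher. Of 8 hepatocyte markers, Ttr, Apoa1, Cps1 and Serpina1 were lower and none higher, and 3 of the 8, Alb, Ttr and Serpina1, also stand on the acute phase list. The summed linear level of the 8 ran from 115558 to 118573 on vehicle arrays and from 104373 to 107188 at 485 mg/kg. Albumin (Alb) gave -0.00 at 485 mg/kg. Its vehicle mean lay close to the highest value of all arrays, 15.07, and whether a fall can show at that level was not tested. Of 8 Kupffer cell and macrophage markers, Cd163, Clec4f, Csf1r and C1qb were lower, and 3 of the 8, C1qa, C1qb and C1qc, were also counted among the other complement genes. The summed level ran from 5804 to 7750 on vehicle arrays and from 3612 to 5602 at 485 mg/kg. Of 6 endothelial markers, Pecam1 and Kdr were lower, with log2 changes of -0.27 and -0.43 and sums of 3379 to 4031 on vehicle arrays and 3169 to 3637 at 485 mg/kg. Rgs5 was higher by 0.81 among 8 stellate cell markers (2731 to 5050 and 2586 to 4438), whose median change was -0.03. Epcam was higher by 0.60 among 4 cholangiocyte markers (626 to 797 and 898 to 1099), whose median change was -0.13. No other marker of either list passed the test. Both erythroid markers, Hbb and Alas2, were lower, with log2 changes of -0.77 and -0.55 (6280 to 9349 and 3394 to 6016), and Cd8a was lower among 6 T and NK cell markers, with a log2 change of -0.53 (211 to 298 and 173 to 224). None of 2 B cell markers (65.0 to 84.2 and 55.5 to 82.3), 3 neutrophil markers (95.3 to 122 and 60.5 to 162) and 4 adipocyte markers (88.0 to 237 and 96.4 to 149) passed the test, and array values have no true 0. The part of these shifts in the members' falls was not tested.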

How the data were processed

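Total RNA of 36 rat liver samples, 6 per group, was hybridised to Affymetrix 3′ arrays, per the labels' protocols. The authors deposited log2 expression values; RMA and the affy package are named per the submitters' processing notes, with versions and settings not given in the sources used here. RMA as usually run gives all arrays like distributions, which would remove a shift shared by most transcripts. The series design names R/maanova with a false discovery rate under 5%; limma was used here instead.

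Of 31099 probe sets, 57 controls were left out and 31042 tested. Genes came from GEO's platform annotation, which names 1 gene for 20826 probe sets, several for 436 and none for 9780; a gene was read from the probe set with the highest mean assigned to it alone. A one-way model of the 6 groups over all 36 arrays was fitted with limma 3.58.1 in R 4.3.3 (30 residual degrees of freedom), giving each dose against vehicle and 485 against 48.5 mg/kg. Benjamini-Hochberg adjustment ran over all probe sets, and a gene was called at an adjusted p below 0.05, two-sided. The fit was tested on simulated data. The number of arrays limits the precision.

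The members, the lists and the tests were chosen with earlier results of these data known. All 38 members are named; array values are given for members called at 48.5 mg/kg and for the 4 largest falls and the rises among those called at 485 mg/kg, and genes of other lists are named where called. Promoters are RefSeq's, build GRCr8, matched by symbol. Alternatives were a replicate block, quantile normalization, median centring, a filter on dim probe sets, an ordinary test, trended robust moderation, a fit on 12 arrays, each array left out in turn, and averaging over all probe sets of a gene.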

Additional observations from a re-analysis of the deposited data

Results flagged for a closer look

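Values were marked where 1 array of a group stood far from the other 5 by Dixon's test, which chance does in about 1 in 20 groups; 16 of 222 groups (7.21%) were marked, and no cause was tested.

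On vehicle arrays, replicate 5 was low for Cfd (7.77, the others 7.96 to 8.05), replicate 6 for C5 (11.17, the others 11.34 to 11.41) and replicate 4 for Vtn (13.74, the others 13.81 to 13.83). Replicate 4 was also low on a joint Cfb and C2 probe set (9.91, the others 10.30 to 10.49), and replicate 3 was high for Klkb1 (12.42, the others 12.04 to 12.16).

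At 0.0485 mg/kg, C4bpa was high on replicate 3 (13.43, the others 13.26 to 13.32) and the joint kininogen probe set on replicate 1 (13.48, the others 13.40 to 13.43). At 0.485 mg/kg, C5 was low on replicate 3 (11.08, the others 11.32 to 11.43) and C8b high on replicate 5 (12.47, the others 12.34 to 12.39). At 4.85 mg/kg, C8g was high on replicate 5 (12.74, the others 12.64 to 12.67), Klkb1 high on replicate 2 (12.46, the others 12.04 to 12.17) and Plg low on replicate 6 (13.48, the others 13.64 to 13.70).

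At 48.5 mg/kg the 3 marked values all lay on replicate 3: Masp2 was high (11.37, the others 11.22 to 11.27), C4bpb low (12.10, the others 12.27 to 12.31) and a joint Cfb and C2 probe set low (9.46, the others 9.64 to 9.69). At 485 mg/kg, F9 was low on replicate 3 (12.72, the others 12.90 to 12.98). The vehicle and 48.5 mg/kg arrays of Masp2 and C4bpb remain apart without the marked array, as the ranges of the others show.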

How the results depend on the processing

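No result reversed under any alternative. Of 32 calls of single genes at 48.5 or 485 mg/kg, 23 were kept under all 20 alternatives run on each and 9 were lost under at least 1: C6, C9, C4bpa, Masp2 and Pros1 at 48.5 mg/kg and C8g, Vtn, Serpinc1 and Masp2 at 485 mg/kg. The adjusted p of C4bpa at 48.5 mg/kg ran from 0.0048 to 0.164. Falls at 485 mg/kg numbered between 21 and 25 over all alternatives and between 21 and 24 on leaving out 1 array. When all probe sets of a gene were averaged, 1 gene was higher at 485 mg/kg and 1 at 48.5 mg/kg, Masp2 being lost from both. Of the 24433 rows tested in that setting, 1958 and 661 were higher. A fit on the 12 arrays of 2 groups gave 2 lower and 0 higher genes at 48.5 mg/kg and 4 falls on the step from 48.5 to 485 mg/kg. It has fewer arrays to estimate the spread, and its calls over all probe sets were fewer too. At 48.5 mg/kg they were 136 lower and 420 higher, against 255 and 797 in the main fit. On the step 427 fell, against 717. Leaving out 1 array gave 2 to 4 lower genes at 48.5 mg/kg. With dim probe sets filtered out, 14 of the members fell on the step, where fewer probe sets were tested. Of the 15521 probe sets kept, 916 fell, against 717 of 31042 in the main fit. The fit without 4.85 mg/kg replicate 6, chosen after seeing the data, gave no count that differed by over 1.5 times. The replicate numbers were not taken to pair the arrays, and the correlations do not settle whether they do. Deviations of same-numbered arrays correlated at -0.18 to 0.23 over 90 pairs (19 above 0.1), with a median of 0.010. Over 450 pairs with other numbers they ran from -0.30 to 0.24 (74 above 0.1), with a median of -0.004. As a hint from the data, 11 of 36 arrays correlated best with their own number, out of 6 numbers. With the replicate block 23 members were lower at 485 mg/kg and 4 at 48.5 mg/kg, 2 were higher at each dose, and 9 fell on the step. Over all probe sets 2284 and 267 were lower at those doses, 2461 and 804 higher, and 757 fell on the step. The call lost at 485 mg/kg was that of Serpinc1. Median centring of each array left 21 falls at 485 mg/kg, while lower calls over all probe sets went from 2241 to 1861. The size of change that could pass the test differed by gene, with SEs from 0.033 to 0.19 on the log2 scale.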
